A study of Mus musculus with 38 samples.

Results

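H3K27ac is an acetylation of histone H3 found at active promoters and enhancers, and in the livers of male and female mice its deposited peaks were joined into stitched domains whenever the gap between neighbouring peaks was 12.5 kb or less. Members were chosen by their H3K27ac tags: domains were ranked by the sum of the tags (aligned reads) that the authors counted in their peaks, and the 500 domains with most tags were kept in the male list and, separately, in the female list. The male 500 came from 17349 stitched domains made of 40903 peaks and the female 500 from 16474 domains made of 38306 peaks. The members held 5158 and 4874 of those peaks. A male member was called shared when it overlapped one of the female 500 by 1 bp or more, and the same was counted from the female side.

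The study mapped 6 histone modifications by chromatin immunoprecipitation and sequencing (ChIP-seq) in whole liver of CD-1 mice, an outbred stock, with males and females of 8 weeks of age and no treatment named in the labels. For H3K27ac the labels list 3 libraries from males and 3 from females. The deposited files of a mark and sex were identical byte for byte, so each mark gave 1 pooled list per sex, and animals cannot be compared within a sex. All coordinates of domains and peaks are on genome build mm9, and only the 19 autosomes were analysed.

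Clusters of strongly acetylated enhancers are often called super-enhancers or stretch enhancers, and they are usually defined by joining nearby enhancer peaks and ranking the joined regions by signal. In many tissues they lie at genes of cell identity, such as lineage transcription factors and the main products of the tissue, which in liver are plasma proteins, apolipoproteins and enzymes of metabolism. In mouse liver many such genes differ between the sexes under control of the pattern of growth hormone release.

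Gene starts were placed on mm9 by matching RefSeq promoter sequences to the sequenced reads of the control IgG library. The promoters of 6 genes are shown because the domains around them carry the comparisons below: Alb, the gene of serum albumin, Fgb, which encodes a fibrinogen chain, Cebpa and Bcl6, both transcription factors of hepatocytes, lie in shared domains, while Slco1a1, an uptake transporter of organic anions, lies in a domain of the male 500 alone and Mtarc1, a molybdenum enzyme, in one of the female 500 alone. Each line gives the 250 bases before the start, 5′ to 3′ on the strand of the gene, from RefSeq on build GRCm38.p6, which is not the build of the peaks. Capitals mark the TATA box letters TATAAA, the HNF1 core GTTAAT, the C/EBP letters TTGCNNAA and the STAT5 letters TTCNNNGAA on either strand.
Alb promoter, chr5:90460620-90460869, plus strand: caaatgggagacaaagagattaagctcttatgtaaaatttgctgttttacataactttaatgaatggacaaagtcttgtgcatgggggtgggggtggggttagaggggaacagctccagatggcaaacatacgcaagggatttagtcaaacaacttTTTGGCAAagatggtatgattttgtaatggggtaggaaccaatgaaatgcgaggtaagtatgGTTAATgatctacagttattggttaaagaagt
Fgb promoter, chr3:83049864-83050113, minus strand: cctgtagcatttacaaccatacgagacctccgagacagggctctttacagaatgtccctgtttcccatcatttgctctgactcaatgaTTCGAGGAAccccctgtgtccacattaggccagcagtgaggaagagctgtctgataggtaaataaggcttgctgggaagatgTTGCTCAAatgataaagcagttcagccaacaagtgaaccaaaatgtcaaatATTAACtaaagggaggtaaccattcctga
Cebpa promoter, chr7:35119043-35119292, plus strand: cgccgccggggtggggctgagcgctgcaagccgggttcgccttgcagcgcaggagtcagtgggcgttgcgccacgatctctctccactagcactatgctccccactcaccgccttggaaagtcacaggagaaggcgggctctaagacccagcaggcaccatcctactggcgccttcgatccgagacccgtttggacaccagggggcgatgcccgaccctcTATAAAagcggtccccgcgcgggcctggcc
Bcl6 promoter, chr16:23981284-23981533, minus strand: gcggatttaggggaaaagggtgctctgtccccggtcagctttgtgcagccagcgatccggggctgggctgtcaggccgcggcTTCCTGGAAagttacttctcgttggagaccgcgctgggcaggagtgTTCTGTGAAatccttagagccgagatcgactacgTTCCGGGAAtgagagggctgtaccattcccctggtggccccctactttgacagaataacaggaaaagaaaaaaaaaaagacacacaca
Slco1a1 promoter, chr6:141946963-141947212, minus strand: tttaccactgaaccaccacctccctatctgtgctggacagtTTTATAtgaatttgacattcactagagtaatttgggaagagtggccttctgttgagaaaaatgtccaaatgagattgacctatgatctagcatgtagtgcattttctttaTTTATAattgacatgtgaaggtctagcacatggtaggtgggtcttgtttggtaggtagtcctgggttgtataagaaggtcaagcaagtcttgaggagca
Mtarc1 promoter, chr1:184811301-184811550, minus strand: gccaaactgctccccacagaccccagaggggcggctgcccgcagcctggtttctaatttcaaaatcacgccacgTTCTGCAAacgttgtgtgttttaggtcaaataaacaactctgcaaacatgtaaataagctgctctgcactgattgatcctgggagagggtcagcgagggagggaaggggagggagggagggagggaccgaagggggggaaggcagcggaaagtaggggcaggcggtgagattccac
The Cebpa promoter held TATAAA from 30 to 25 bases before the start. The Alb promoter held the HNF1 core from 32 to 27 bases before the start and a C/EBP match from 94 to 87 before it. The Fgb promoter held the same pair, from 29 to 24 and from 80 to 73 bases before its start, with a STAT5 match farther out. In the Slco1a1 promoter TATAAA was found on the other strand, from 209 to 204 and from 99 to 94 bases before the start, and in the Mtarc1 promoter a C/EBP match from 176 to 169 before it. The Bcl6 promoter held 3 STAT5 matches, and Bcl6 is known as a repressor that acts on targets of STAT5 in liver.

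The tags were concentrated in few domains, and to nearly the same degree in both lists. The male 500 made up 2.88% of the stitched domains and held 27.5% of the 19253391 tags in male peaks. The female 500 made up 3.04% of the domains and held 26.8% of 12837285 tags. The next 500 domains of each list held 13.6% and 13.5%. The male list had 1.5 times the tags of the female list, so levels are compared below as ranks or as shares of list tags. Members were wide, with a median of 72.8 kb (male) and 65.5 kb (female) against 3.77 and 3.68 kb over all domains, and they covered 40.8 and 36.6 Mb. A member had a median of 9 peaks in either list, and at most 52 in the male list or 44 in the female list. Few members rested on a single peak, 3 in the male list, with the starts of Txnrd2, Ahsg and Hjurp, and 2 in the female list.

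**Figure D1:**
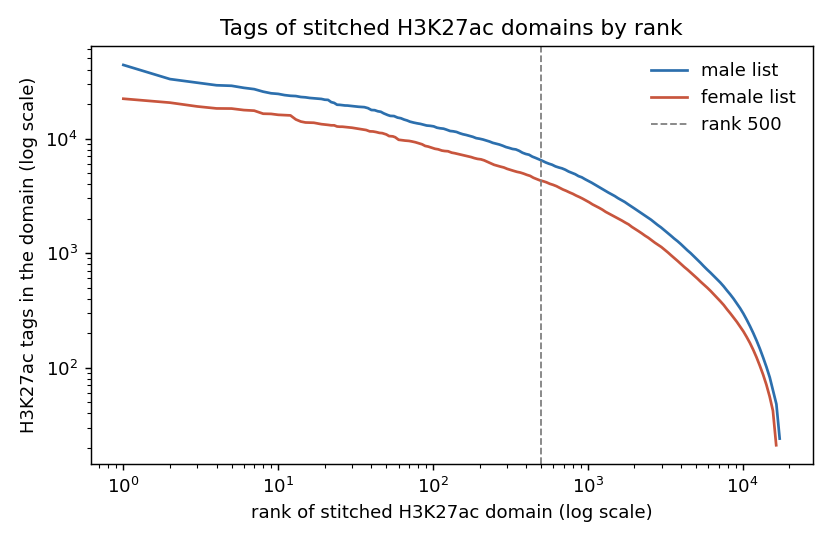
Tags in each stitched H3K27ac domain (log scale) against its rank in the male (blue) and female (red) list (log scale). The curves run in parallel through the dashed line at rank 500, where the male list stands at 6454 tags and the female list at 4288.

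Tags fell smoothly through the limit, so the edge of the 500 marks no break in the data. Rank 500 of the male list, at chr19:20579163-20634579 between the placed starts of Anxa1 and Aldh1a1, held 6454 tags, and the first domain outside, at chr13:43530387-43658114, held 6450. In the female list rank 500, at chr11:120517939-120558468, held 4288 tags and the first domain outside, at chr5:115956354-115994525, held 4285. Part of the tag values were deposited with 3 significant digits. That rounding could move 1 male and 2 female members across the limit.

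All 10 of the highest male domains overlapped a member of the female 500, and 6 of them held a placed gene start, among them those of Igf1, Ghr and Ppara. Male rank 1, at chr15:58718600-58922503, had 43918 tags in 15 peaks and no gene start placed in it, and its female counterpart ranked 490. Male rank 2, on chromosome 18, had 33056 tags and a female rank of 47. Male rank 3, at chr4:150029509-150200753, had 30750 tags and was female rank 2. It lies between the placed starts of Car6 and Errfi1, where the RefSeq gene order has Eno1, Rere and Slc45a1. Rank 3 thus differed little between the lists, while rank 1 was far apart in them.

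Cmah, an enzyme of sialic acid synthesis, lay in male rank 4 with 29188 tags and in female rank 18. Aldh1l1, a folate enzyme, and Klf15, a transcription factor of fasting metabolism, lay in male rank 5 with 28886 tags, and that domain was female rank 25. Igf1, the growth factor that the liver secretes in response to growth hormone, lay in male rank 6 with 27720 tags in 2 peaks and in female rank 3 with 19067 tags in 3 peaks. Its share of list tags was close in the lists, with a log2 ratio of male over female shares of -0.04. Ppara, the nuclear receptor of fatty acids, lay in male rank 7 with 27000 tags and in female rank 73. Ghr, the growth hormone receptor, lay in male rank 8 with 25665 tags, and that domain overlapped female rank 52. Whether Ghr has its start in a female member was undetermined, and the female domain found for its start was rank 1884. Male ranks 9 and 10 held 24842 and 24541 tags. Rank 9, at the lectin gene Clec2d, was female rank 7, and rank 10, between the placed starts of Lurap1l and Zdhhc21 around Mpdz and the transcription factor gene Nfib, was female rank 72.

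The 10 highest female domains included male ranks 3, 6 and 9, at female ranks 2, 3 and 7. Female rank 1, at chr8:129208461-129471595 with the start of Tomm20, a receptor of mitochondrial protein import, had 22266 tags in 42 peaks and was male rank 52. Female rank 4, at chr6:31016702-31174369 between the placed starts of Tsga13 and Mkln1, had 18319 tags and was male rank 34. Female rank 6 held Apoa1, Apoa4 and Apoa5, apolipoproteins of plasma lipoprotein particles, with 17728 tags, and was male rank 23. Of the 10 highest domains of either list, 3 overlapped one of the 10 highest of the other. At 50 the count was 31, at 100 it was 69, and at 250 it was 197 of the male and 199 of the female domains. Over the male 500, Spearman's rho between the tags of a member and the female tags inside it was 0.81, and over the female 500 the corresponding rho was 0.83. Both are descriptions across domains that were chosen by one of the values.

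The 500 domains were mostly the same regions in both sexes. Of the male 500, 401 overlapped a female member (80.2%, exact Clopper-Pearson 95% interval 76.4 to 83.6). Of the female 500, 404 overlapped a male member (80.8%, 77.1 to 84.2). These intervals, and all others below, cover counting error only. The overlaps made 405 pairs, and 4 male members each spanned 2 or more female members. Of the 99 male members without a female partner in the 500, 78 overlapped one of the next 500 female domains, 17 one of the 1000 after those and 4 one of lower rank, so 0 of them lacked a female domain. Of the 96 female members without a male partner, 72, 18 and 5 did so, and 1 overlapped no male domain.

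**Figure D2:**
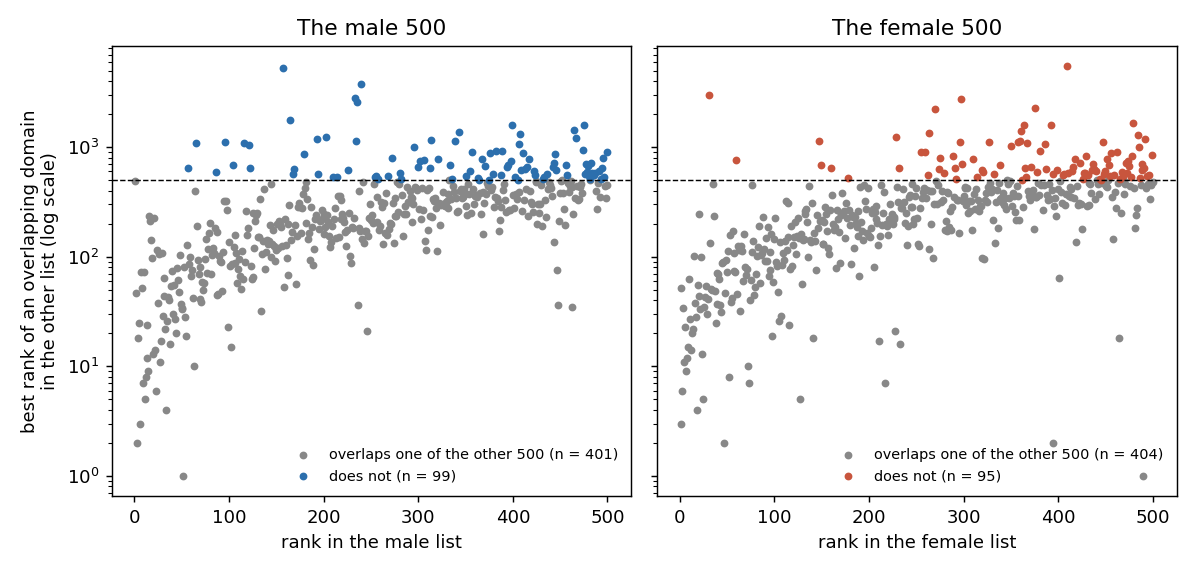
Best rank of an overlapping domain in the other list (log scale) against the own rank of each member, for the male 500 (left) and the female 500 (right). The dashed line marks rank 500. Grey points are shared members and coloured points are members without a partner in the other 500, most of which sit just above the line. The 1 female member that overlaps no male domain is not drawn.

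Members without a partner were mostly low in their own list. The median rank of such male members was 376 and that of female ones 402, against 219 and 208.5 for shared members. Only 4 of the highest 100 male domains and 2 of the highest 100 female domains lacked a partner. Joining also differed between the lists. The region of 54 of the 99 male members was covered by 2 or more separate female domains, against 78 of 401 shared male members, and in 32 of the 99 the female tags inside the member summed to at least the 4288 tags of the female limit. Of the 96 female members 33 were split in the male list, against 33 of 404 shared ones, and 10 held male tags at or above the male limit.

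The 5 highest domains of the male 500 without a female partner were at Zmiz1, at Glyat and Keg1, at Slco1a1, at Hsd3b2 and Hsd3b3, and at Gtpbp4. Zmiz1, a transcriptional coregulator, lay in male rank 57 with 15540 tags, and the female list held 6954 tags there, at best in rank 642. The domain of Glyat, a glycine conjugation enzyme, was male rank 65 with 14651 tags and had 6262 female tags. The domain of Slco1a1, at chr6:141846603-141966077, was male rank 86 with 13294 tags, against 4801 female tags and a female rank of 595. Hsd3b2 and Hsd3b3, which belong to a family of steroid dehydrogenases, lay at chr3:98473127-98569341 in male rank 96 with 12911 tags, against 4359 female tags and a female rank of 1120. The domain of Gtpbp4, a ribosome assembly factor, was male rank 104 and female rank 694. At all 5 domains the share of female tags was lower than that of male tags, with log2 ratios of shares from 0.46 at Gtpbp4 to 0.98 at the Hsd3b genes.

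The 5 sites differed in the log2 ratio, male over female, that the authors' deposited table has for each peak. Weighted by tags, the mean of the authors' deposited table was 0.97 over the Hsd3b domain, 0.71 over the Slco1a1 domain, 0.50 over the Glyat domain and 0.37 over the Gtpbp4 domain, and it was -0.11 over the Zmiz1 domain. At Slco1a1 the domain held 8 H3K27ac and 21 H3K4me1 calls in the male direction and 0 in the female direction in the authors' deposited table. Called peaks of the male and female lists are added in these counts, so a site called in both lists is counted for each. At the Hsd3b genes those counts were 7 and 10, again with 0 in the female direction, by the same authors' deposited table. Over the whole male list the authors' deposited table called 1.74% of H3K27ac peaks male, and over the whole female list it called 3.02% female.

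Among the 5 highest female domains without a male partner, the first stood apart from the rest. It was female rank 31, at chr9:48503288-48575282 between the placed starts of Gm32280 and Htr3b, where the RefSeq gene order has Htr3a and Zbtb16, a zinc finger transcription factor gene. It held 12348 tags in 9 peaks against 2163 male tags and a male rank of 2981, with a mean of -1.01 by the authors' deposited table. Mtarc1 and Mtarc2 lay in female rank 60 with 9756 tags. The male list had 9351 tags there, at best in rank 765, and the ratio from the authors' deposited table was -0.05. Female rank 147, at chr4:53079887-53173529 between the placed starts of Nipsnap3b and Slc44a1 where the gene order has Abca1, an exporter of cholesterol, held 7286 tags against 3911, with a ratio of -0.01 in the authors' deposited table. Female ranks 149 and 160, at chr15:75203543-75263418 and chr11:79027644-79104972, had ratios of -0.61 and -0.45 in the authors' deposited table.

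Shared members also differed in size between the lists, though less. By the ratio of shares of list tags within the bounds of the male members, the most male shared members after male rank 1 were at Plpp3 (male rank 64, female rank 401), at Podn and Scp2 (19 and 98), between the placed starts of Syce1l and Dynlrb2 (24 and 116) and between those of Lurap1l and Zdhhc21 (10 and 72). Their log2 ratios of shares were 0.81, 0.80, 0.75 and 0.73. The authors' deposited table gave mean log2 ratios of -0.10, 0.76, 0.65 and 0.19 over the same domains, so the share and the ratio of the authors' deposited table had opposite signs at Plpp3, and the last domain holds a large peak that the female list lacks. Scp2 encodes a carrier of sterols in peroxisomes. The most female were at St3gal5, a ganglioside synthase (male rank 102, female rank 15), on chromosome 18 (63 and 10), at Tomm20 (52 and 1), between the placed starts of Dhrs3 and Tnfrsf1b (99 and 23) and between those of Tsga13 and Mkln1 (34 and 4), with log2 ratios from -0.71 to -0.54. Over all 401 shared male members the median log2 ratio of shares was -0.02, and 1 of them, male rank 1, was beyond 1 in size. Within the bounds of the female members, 1 of 404 shared members was beyond it, the domain at Hnf4a with -1.16, which is taken up below.

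Male rank 1 rested on a single broad peak that the female list lacks. The peak at chr15:58804206-58918680, 114.475 kb long, carried 36400 of the 43918 tags. No female H3K27ac peak overlapped it, yet the authors' deposited table gives it a log2 ratio of -0.18 and calls it sex-independent. With all 21 male peaks of this kind left out, an alternative added after the data were seen, the domain was male rank 381, close to its female rank of 490. The region of the female domain at Hnf4a, the central nuclear receptor of hepatocytes, held a mirror case. Hnf4a lay in female rank 21 with 13158 tags and in male rank 246. A female peak at chr2:163395027-163426577, 31.551 kb long with 6089 tags, overlapped no male peak, and the authors' deposited table gives it a log2 ratio of -0.29.

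Such peaks were few. Of the 4652 male peaks with 1000 tags or more, 30 overlapped no female peak, and 21 of these 30 were called sex-independent in the authors' deposited table. Of the 21, 13 lay in the male 500, in 10 members without a female partner and 3 shared members. Of 2614 such female peaks 14 overlapped no male peak, 12 of them were called sex-independent in the authors' deposited table, and 11 lay in the female 500, in 5 members without a partner and 3 shared members. For the 21 male peaks the authors' deposited table had ratios that ran from -0.43 to 0.43 with a median of 0.04. The peaks were long, with medians of 14.7 kb (male) and 13.9 kb (female) against 7.82 and 9.19 kb over all peaks of that tag number. Their median peak score was 737 for the male list and 1107 for the female one, against 3100 in both for all peaks of that tag number. Several of these peaks also had a score of exactly 3100, such as the male one at chr4:82021641-82054345. Whether the reads of the other sex were there without a peak being called was not tested, since the H3K27ac files hold peaks and not reads.

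Several members without a partner held such a peak. The male members at Bcar1 (rank 116), at Acsl1 and Cenpu (rank 121), at Arhgap42 (rank 233) and at Arl4d (rank 281) each held one and had no partner in the female 500. Acsl1 activates fatty acids in the liver. The male domain at chr3:28577103-28639809, rank 157, had 9925 of its 10890 tags in such a peak, and its best female domain was rank 5296. In the female list the members at Mtarc1 and Mtarc2 and at Lifr, a cytokine receptor gene (rank 298), each held one. Female rank 383, at chr6:115595668-115629233, was made of such peaks and had 0 male tags. Apart from the domain of Mtarc1, these domains were chosen after their values were seen. With all such peaks left out, the overlap was 81.2% of the male and 81.8% of the female 500, the domain at Mtarc1 fell to female rank 517 and the one next to Abca1 to 1266. With every peak that lacked a peak in the other list left out, sex-biased ones included, the overlap was 83.4% and 83.8%, the domain between Gm32280 and Htr3b fell from female rank 31 to 1677 and the one at Glyat from male rank 65 to 574.

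The tag-weighted ratios in the authors' deposited table were small over most members, shared or not. In the authors' deposited table the 401 shared male members had a median log2 ratio of 0.01, with 395 between -0.5 and 0.5. The 99 male members without a partner had a median of 0.20 in the authors' deposited table, 90 of them above 0, 84 between -0.5 and 0.5 and 1 of 1 or more. The 96 female members without a partner had a median of -0.28 in the authors' deposited table, with 90 below 0, 79 between -0.5 and 0.5 and 4 at -1 or beyond. These values come from the H3K27ac libraries that chose the members and are a description.

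**Figure D3:**
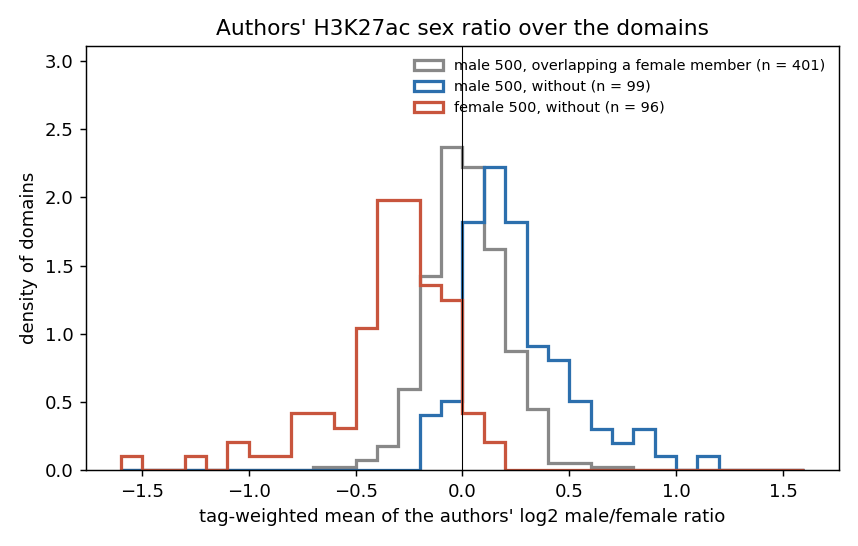
Density of domains by the tag-weighted mean of the authors' log2 ratio of male over female H3K27ac signal, in bins of equal width. Shared male members (grey) centre near 0, male members without a partner (blue) lie mostly between 0 and 0.5, and female members without a partner (red) mostly between -0.5 and 0, with 1 value below -1.5 drawn in the last bin on the left.

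Few of the peaks inside the members were called sex-biased for H3K27ac. A call in the authors' deposited table means an absolute log2 ratio of 1 or more with a p-value below 0.001. The test behind that p-value is not known here, so it is not read as a comparison between animals. Of the 99 male members without a partner, 82 held no H3K27ac call in either direction in the authors' deposited table, and of the 96 female members 67 held none. Male H3K27ac calls alone were held by 15 of the 99 (15.2%) against 16 of 401 shared members (3.99%) in the authors' deposited table, beside 3.50% of all male domains. Female calls alone were held by 28 of the 96 (29.2%) against 43 of 404 (10.6%) in the authors' deposited table, beside 5.71% of all female domains. Calls of this mark come from the contrast that sets the members apart and nothing is read from them.

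The largest sex ratios among members without a partner were at domains outside the rule for named domains, chosen here after their values were seen. In the male list the mean from the authors' deposited table reached 1.12 over rank 343, at chr1:21288727-21334876, and 0.87 over rank 399, which holds Aox3, an aldehyde oxidase gene. The female list reached -1.91 in the authors' deposited table over rank 409, at chr1:164884517-164920562, where the best male domain was rank 5464. Female rank 375, at chr4:6826297-6887424, had a mean of -1.25 and 13 female H3K27ac calls in the authors' deposited table. Female rank 392, at Pptc7, had a mean of -1.09 and 10 calls there. These calls are again added over the male and female lists.

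H3K4me1, which marks enhancers and comes from other libraries than those that chose the members, was called in the direction of the list more often where a partner was missing in the male list. In the authors' deposited table, male H3K4me1 calls without female ones were found in 41 of the 99 male members without a partner (41.4%, interval 31.6 to 51.8), in 87 of the 401 shared ones (21.7%, 17.8 to 26.1) and in 10.4% of all male domains. Female calls alone were found in the authors' deposited table in 11 of the 99 and 65 of the 401, beside 4.1% of all male domains. From the female side, female H3K4me1 calls alone were found in the authors' deposited table in 20 of 96 members without a partner (20.8%, 13.2 to 30.3), in 58 of 404 shared ones (14.4%, 11.1 to 18.2) and in 4.78% of all female domains. Male calls alone were found in the authors' deposited table in 8 of the 96 and 77 of the 404, beside 6.76% of all female domains. For calls in the direction of the list, the intervals do not overlap in the male list and do in the female list. The difference was not seen when domains were ranked by tags per kb of peak, where the authors' deposited table gave male calls alone in 9.68% of male members without a partner and 9.89% of shared ones. In the female list it was not seen when peaks with H3K4me3 were left out before joining (11.5% against 12.2%) or when all peaks without a peak in the other list were (13.6% in both), by the authors' deposited table. A wide domain holds more H3K4me1 peaks, so the peaks themselves were counted too. By the authors' deposited table, 10.8% of the 1271 male H3K4me1 peaks in male members without a partner were called male, against 3.27% of the 5717 in shared members and 8.21% of all male H3K4me1 peaks. In the female list 2.87% of 1081 peaks were called female in the authors' deposited table, against 1.48% of 5199 in shared members and 3.88% of all. Over the H3K4me1 peaks inside any H3K27ac domain the authors' deposited table called 4.70% of the male list male and 1.93% of the female list female. Shared members lay under these shares in both lists, and members without a partner lay above them.

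H3K4me3, the mark of active promoters, was called male alone in the authors' deposited table in 28 of the 99 male members without a partner (28.3%, interval 19.7 to 38.2) and in 72 of the 401 shared members (18.0%, 14.3 to 22.1), beside 3% of all male domains. In the female list it was called female alone in the authors' deposited table in 9 of 96 (9.38%, 4.38 to 17.1). Among shared female members it was 18 of 404 (4.46%, 2.67 to 6.95), beside 1.07% of all. In the next 500 domains, nearer to the members in width, these shares were 11% (male) and 2.8% (female). By the authors' deposited table, female calls alone were in 4 of the 99 and 19 of the 401, beside 0.951% of all male domains. Male calls alone were in 7 of the 96 and 66 of the 404, beside 2.93% of all female domains. By peaks, the authors' deposited table called 15.6% of the 257 male-list H3K4me3 peaks in male members without a partner male, against 7.91% of the 1226 in shared members and 3.80% of those in all male domains. Of the female-list peaks it called 4.35% of 276 female, against 1.78% of 1401 and 1.22%, in the authors' deposited table. For H3K36me3, which lies over transcribed gene bodies, the authors' deposited table called 7 of the 1741 male islands in the male 500 male (0.402%, against 0.556% of all).

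The members held marks of active chromatin and carried little H3K27me3. An H3K4me1 peak of the same sex lay in each of the 500 members of both lists. The same was true of the next 500 domains, and of 91.9% of all male and 93.5% of all female domains. The median share of base pairs under H3K4me1 was 54.1% of a male and 65.0% of a female member, against 64.5% and 73.8% over all domains. Most of the latter are narrow, and in the next 500 domains the medians were 51.9% and 62.5%. With base pairs pooled, H3K4me1 covered 53.0% and 62.4% of the members, against 49.7% and 58.0% of all domains. An H3K4me3 peak lay in 482 male members (96.4%, interval 94.4 to 97.9) and 481 female ones (96.2%, 94.1 to 97.7), against 55.9% and 59.8% of all domains. The next 500 domains, of median width 47.4 and 43.1 kb, were nearly as high with 93.4% and 92.0%. By base pairs, H3K4me3 covered a median of 10.6% of a male and 11.3% of a female member, against 8.51% and 11.3% of all domains. Pooled, it covered 10.8% and 11.5% of the members, against 14.1% and 15.2% of all domains. Peaks that overlapped an H3K4me3 peak carried 62.5% of the tags of the male 500 and 61.0% of those of the female 500, close to the 59.4% over all domains of either list. Male rank 3, in the interval that contains Rere, was among the 18 male members without any H3K4me3 peak, while its female counterpart held 2.

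**Figure D4:**
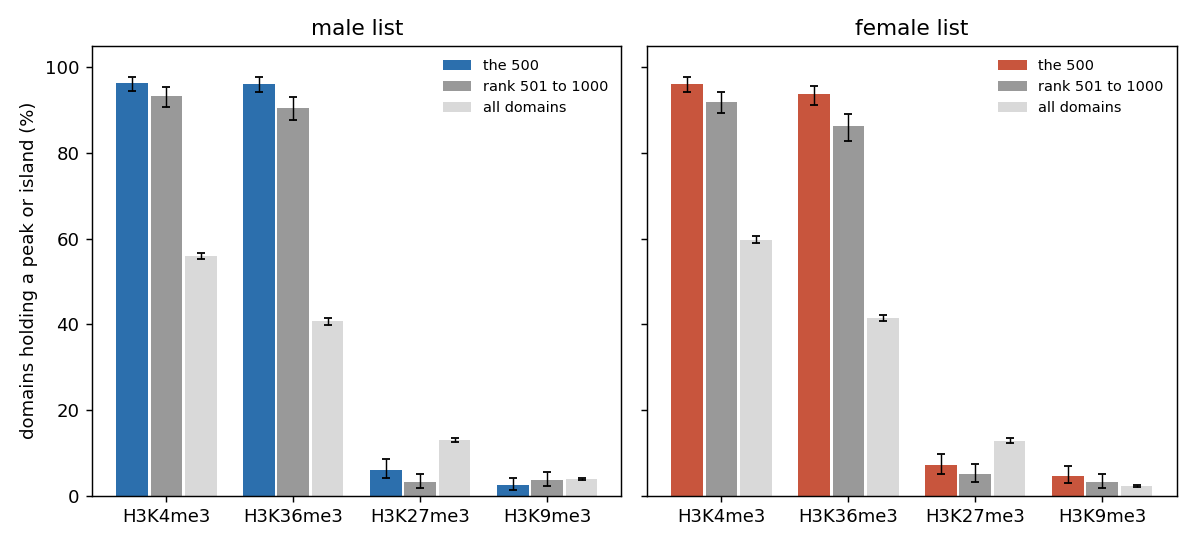
Share of domains that hold at least 1 peak or island of each mark in the same sex, for the 500, the next 500 domains and all stitched domains of the male (left) and female (right) list. Bars are percentages and error bars exact 95% intervals. H3K4me3 stands at 96.4% and 96.2% of the members, and H3K27me3 at 6% and 7.20%.

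H3K36me3 islands covered a median of 44% of the base pairs of a male member and 42.2% of a female member. The medians were 35.3% and 33.2% in the next 500 domains and 0% over all domains, most of which are narrow. With base pairs pooled, the islands covered 44.1% and 42.5% of the members, against 30.9% and 31.4% of all domains. Of the male members, 455 had at least 10% of their length under H3K36me3 (91.0%, interval 88.1 to 93.4), and of the female members 439 (87.8%, 84.6 to 90.5). In the next 500 domains that share was 83.2% and 77.6%, and over all domains 35.2% and 35.8%. H3K27me3, the mark of Polycomb silencing, touched 30 male members (6%, 4.08 to 8.45) and 36 female ones (7.20%, 5.09 to 9.83), against 13.0% and 12.9% of all domains, even though members are wider. In the next 500 domains it touched fewer still, 3.2% and 5%. It covered 10% or more of 6 members in each list (1.2%), against 0.8% and 1.8% of the next 500 and 11.4% and 11.1% of all domains. The highest cover was 20.6% of a male and 32.5% of a female member. The 6 male members held the starts of Cyp2e1, a cytochrome P450 of alcohol metabolism (rank 270, 18.5% of base pairs), Fmo2 (384), Mdm4 and Pik3c2b (398), Grn and Slc25a39 (458) and Haao, an enzyme of tryptophan breakdown (470), and 1 without a placed start. The domain of Haao was also among the 6 in the female list, at rank 337 with 15.3%. H3K9me3 touched 12 male members (2.4%, against 3.88% of all male domains) and 23 female ones (4.6%, against 2.20%). The 6 members of each list were picked out by their H3K27me3 values.

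Control IgG reads were slightly denser over the members than over other domains. The only IgG library with reads here, from a male of an earlier record, gave a median density of 1.13 times the autosomal mean over the male 500 and 1.12 over the female 500, against 1.04 over all domains of either list. The domain at 1600014C10Rik, male rank 12 and female rank 8, stood at 2.42 in both, and it also had the most H3K27ac tags per kb of peak among the male 500 (558) and the female 500 (427). The domain at Hjurp, male rank 447 and female rank 76, stood at 2.98 and 2.54. The part of this control signal in their H3K27ac tags was not tested.

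Genes of hepatocyte identity were concentrated in the members. Of the protein-coding genes whose position could be resolved, 627 of 15669 had a start in one of the male 500 (4%) and 586 of 15627 in one of the female 500 (3.75%). A coding start was placed in 307 male and 294 female members. Of the genes, 486 were in both, which is 77.5% of the male and 82.9% of the female genes. The lists below were written with earlier results of these data known, so their counts are descriptions.

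**Figure D5:**
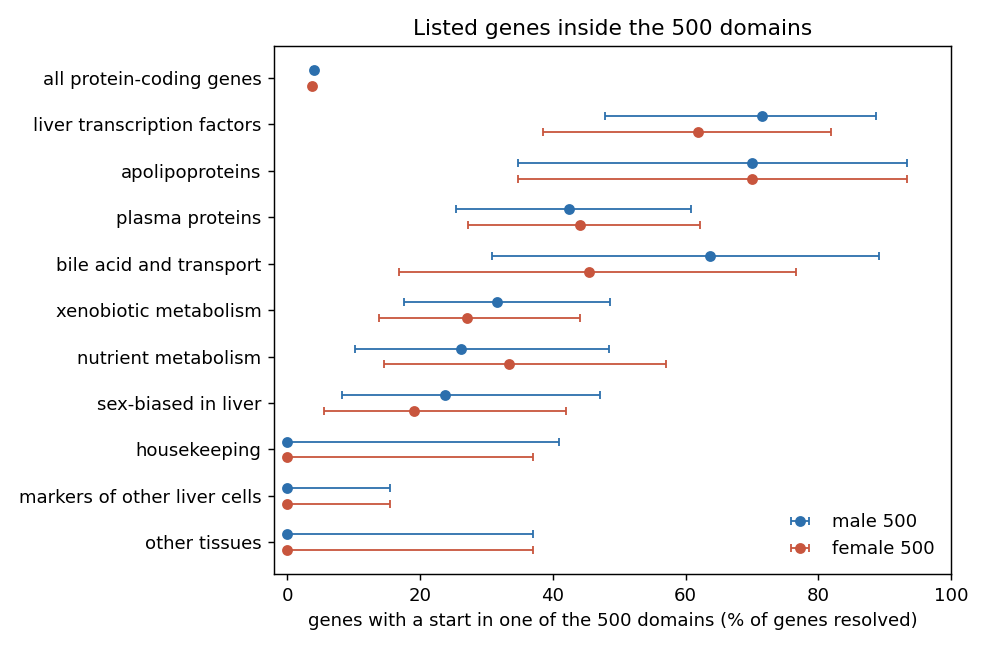
Percentage of the resolved genes of each list with a start inside one of the male (blue) or female (red) 500 domains, with exact 95% intervals as bars. Liver transcription factors and apolipoproteins have the largest shares, and the lists of housekeeping genes, of markers of other liver cells and of other tissues stand at 0.

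Transcription factors of the liver were among the lists with the largest shares. In the male 500, 15 of 21 had a start (71.4%, interval 47.8 to 88.7), and in the female 500 13 of 21 (61.9%, 38.4 to 81.9). Cebpa, a driver of hepatocyte differentiation, was in male rank 39 and female rank 54. Foxa2, a pioneer factor of endoderm, was in ranks 55 and 19, and Hnf4a in 246 and 21. Rxra, the shared partner of many nuclear receptors, was in 134 and 32, and Nr1i3, the xenobiotic receptor CAR, in 76 and 144. Nr1h4, the bile acid receptor, was in 183 and 336, and Nr1i2, the receptor PXR, in 397 and 267. Stat5a and Stat5b, which carry the growth hormone signal, shared a domain at ranks 410 and 261, and Bcl6 was in 127 and 120. Onecut1 was in male rank 45, while in the female list its start fell in the domain ranked 546. Foxa3 was in male rank 487 and female rank 582. Foxa1, at 734 and 973, Nr0b2, at 1192 and 1125, and Nr1h3, at 1762 and 1702, lay in stitched domains below the 500 in both lists.

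Apolipoprotein genes were in the members in 7 of 10 cases in both lists (70.0%, interval 34.8 to 93.3). They sat in 3 clusters: Apoa1, Apoa4 and Apoa5 in male rank 23 and female rank 6, Apoc2, Apoc4 and Apoe in ranks 92 and 90, and Apoa2 in ranks 76 and 144, so they are not 7 separate cases. Apob, the main protein of very low density lipoprotein, was in ranks 1222 and 1811. Of plasma protein genes 14 of 33 were in the male and 15 of 34 in the female 500. Alb was in male rank 44 with 17308 tags and in female rank 20, Fga, Fgb and Fgg in ranks 72 and 59 and Ahsg, the gene of fetuin A, in 186 and 93. F7 and F10, clotting factors, shared ranks 276 and 234. C8a was in male rank 66 and outside the female 500, in the domain ranked 3292.

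Genes of bile acid handling and transport were in the male 500 in 7 of 11 cases and in the female 500 in 5 of 11. Cyp8b1, which sets the type of bile acid, was in ranks 163 and 198, Slc10a1, the bile acid uptake carrier, in 139 and 111, and Abcc2, a canalicular exporter, in 148 and 126. Abcg5 and Abcg8, which form the sterol exporter, were in male rank 407 and in the female domain ranked 1726. Of xenobiotic metabolism genes 12 of 38 were in the male and 10 of 37 in the female 500, among them Ugt1a1, which conjugates bilirubin (20 and 13), Cyp1a2 (77 and 71) and Gstp1 (46 and 61). Of nutrient metabolism genes 6 of 23 and 7 of 21 were members, with Tat, a tyrosine aminotransferase, in 250 and 215 and Tdo2, which starts tryptophan breakdown, in 229 and 88.

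Of genes known to differ by sex in liver, 5 of 21 were in the male 500 (23.8%, interval 8.22 to 47.2) and 4 of 21 in the female 500 (19%, 5.45 to 41.9). Cyp2d9, a male-biased P450, was in male rank 48, while in the female list its start fell in the domain ranked 7689. The male domain of Cyp2d9 still overlapped a female member, rank 104, which holds Cyp2d10. Slco1a1 was in male rank 86 and female rank 595, and its neighbour Slco1a4, a female-biased transporter, in male rank 703 and female rank 488. Hsd3b5 lay just outside the male 500, at 519, and at 1209 in the female list. The female-biased P450 genes Cyp2a4 (male 11398, female 3283) and Cyp2b10 (4001 and 1862) lay in far lower domains of both lists, and ranked higher in the female one.

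Markers of other cell types were too few to set them apart from the 4% and 3.75% of all coding genes. Of 38 listed markers 22 were resolved. Of these 22 markers of Kupffer, endothelial, stellate, bile duct cells and lymphocytes, 0 were in either 500 (interval 0 to 15.4%), and of 8 genes of other tissues 0 were (0 to 36.9%). In the male list 5 of the markers lay in a stitched domain at all, the highest being Cd68 of macrophages at rank 1168, and Stab2 of endothelium was at 13038. In whole liver tissue a smaller share of cells of a type and a weaker mark per cell cannot be told apart. Of the housekeeping genes 7 were resolved against the male and 8 against the female domains, and 0 were in either 500, again a number too small to tell from that share. Their median rank, over the 5 that lay in a domain, was 4173 and 3688, against 3772 and 3935 over all coding genes in a domain. Of the listed hepatocyte genes, which define the main cell type of the labelled tissue, Alb, Apoa1, Hnf4a and Cebpa lay in members of both lists. Apob lay below both 500, at ranks 1222 and 1811. Serpina1a could not be resolved, and Ttr and Cps1 had no result here.

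Short motifs of liver factors were searched on both strands over the 300 bases from 250 before to 50 after the start of coding genes, in 788 promoters inside the male 500, 760 inside the female 500, 618 inside both and 20085 in all. TTGCNNAA was found in 12% of the promoters inside both (interval 9.52 to 14.8) and in 10.3% of all. GTTAAT was found in 8.25% (6.21 to 10.7) and 6.23%. In the female 500 taken alone its share was 8.55%, and the interval, 6.66 to 10.8, lay above that of all promoters. In the male 500 it was 7.87% (6.09 to 9.97). That female share was picked out from several motifs and sets, and no test was run. A gene can have several promoters, 760 for 586 genes in the female 500, so promoters are not independent cases in these intervals. TGTTTAC, the FOXA letters, was found in 3.24% of promoters inside both (1.99 to 4.95) and 3.04% of all, TTCNNNGAA in 7.12% (5.22 to 9.44) and 7.78%, TATAAA in 10.2% (7.92 to 12.9) and 12.7%, and CAAAGTCCA, a short form of the HNF4 letters, in 0.809% (0.263 to 1.88) and 0.463%. The longer C/EBP form TTGCGCAA, contained in TTGCNNAA, was found in 0.162% and 0.219%. The long HNF4 direct repeat and the HNF1 palindrome, which contains GTTAAT, were found in 2 and 1 of the 618 promoters and in 15 and 1 of all. The window covers promoters only and says nothing of the enhancers that make up the rest of a domain.

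Members were spread over all 19 autosomes. They made up between 2.12% of the male domains, on chromosome 13, and 3.77%, on chromosome 18. In the female list the range was from 2.22% on chromosome 3 to 4.04% on chromosome 6. Over all autosomes 19.8% of male and 19.2% of female members had no partner. Male members without a partner were most numerous on chromosome 3, with 11 of its 27 members. Female ones were most numerous on chromosome 5, with 12 of 34. On chromosome 6 the male list had 1 such member of 33. The female list had 0 of 15 on chromosome 14 and 0 of 18 on chromosome 18. These are extremes of small counts, and no test was run on them.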

How the data were processed

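ChIP-seq of 6 histone marks was analysed from the deposited peak lists, 1 pooled list per mark and sex, on mm9. Reads were aligned with Bowtie and islands of H3K36me3, H3K27me3 and H3K9me3 called with SICER 1.1, per the submitters' processing notes. The narrow marks came in the column layout of MACS, with the version not given in the sources used here. As the file headers have it, the authors deposited for each peak a tag count, a fold enrichment, a score made from the log10 of the peak's p-value, a percent FDR, a log2 ratio of male over female and a p-value of that ratio. The normalisation and test behind the log2 ratio are likewise unknown. The deposited H3K27ac tag counts have 3 significant digits for 17335 peaks in each list, 42.38% of the male and 45.25% of the female peaks, which changed the tags of a member by at most 0.490%. Depth is given as tags in peaks, since the total reads of the histone libraries were not analysed here.

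Peaks were joined at gaps of 12.5 kb or less, and the 500 domains with most tags were kept. The members and gene lists were chosen with earlier results of these data known. With 1 list per sex there was no test between animals. Shares carry exact Clopper-Pearson 95% intervals. The joining of peaks and the coverage and overlap of regions were checked on simulated regions. Named domains are the 10 highest male and female domains, the 5 highest of each list without a partner, those at the limit of each 500 and the 5 most male and most female shared domains. The 10 highest female domains were added after the rule for names was written. Genes named are the listed genes and those with a start in or next to a named domain. Further domains and their genes are named for their values and were picked after these were seen. They are members with a single peak, a large peak missing from the other list, a large sex ratio, H3K27me3 cover or high IgG density.

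No mm9 genome was used. RefSeq promoters (GRCm38.p6) were matched to 35-base reads of the IgG library, over at least 24 bases with at most 2 mismatches, which placed 13872 of 25748 genes (53.9%). The others were resolved, where possible, from placed neighbours in RefSeq order. Of 10259 placed coding starts 59.4% lay in a male H3K4me3 peak, against 1.32% of the autosomes. Gene starts on chromosome 18 were not analysed here. Near-identical gene copies, such as the Cyp2d, Ugt2b and Hsd3b families, can be misplaced by this matching. Python 3.11.15, numpy 2.4.6, pandas 2.3.3, scipy 1.17.1 and matplotlib 3.10.9 were used. Alternatives covered the joining distance, the number of domains, the ranking, the peaks used, the overlap, the call threshold and the IgG reads.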

Additional observations from a re-analysis of the deposited data

How the results depend on the processing

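No paired analysis was possible because the files of a mark and sex are identical, so the lists carry no replicates, and for the same reason no replicate could be left out. The 2 alternatives that drop peaks without a peak in the other list were chosen after seeing the data. Values are given for the male and then the female list. The share of tags in the members was 21.9% and 21.5% with peaks joined within 5000 bp, 34.7% and 34.0% within 25000 bp, 14.9% and 14.4% for single peaks, 17.5% and 17.1% for 250 domains, 41.0% and 40.3% for 1000, 9.09% and 11.2% ranked by tags per kb, 26.1% and 26.5% with the best-scored 50% of peaks, 30.3% and 30.8% without H3K4me3 peaks, 27.2% and 26.7% without the large sex-independent peaks missing from the other list, and 26.6% and 26.4% without all peaks missing from it. The overlap of the lists was 84.2% and 85.2% within 25000 bp, 73.2% and 74.0% for single peaks, 85.1% and 86.8% for 1000 domains, 56.6% and 56.6% by tags per kb, 67.4% and 68.8% without H3K4me3 peaks, and 100% and 99.8% with any domain of the other list as partner. Members without a partner with H3K4me1 calls of their own direction alone, in the authors' deposited table, made up 30.4% and 12.7% within 5000 bp, 17.2% and 3.85% for single peaks, 9.68% and 4.15% by tags per kb, 28.8% and 13.0% with the best-scored peaks, 27% and 11.5% without H3K4me3 peaks, and 18.2% and 8.33% with calls at an absolute log2 of 1.5, where shared members had 8.23% and 3.96%. Members with an H3K4me3 peak made up 91.2% and 90.6% within 5000 bp, 99.6% and 98.6% within 25000 bp, 84.6% and 80.6% for single peaks, 92.8% and 88.8% by tags per kb, 94.1% of the female 1000 and 94.0% of male members with the best-scored peaks. The median length under H3K36me3 was 40.9% in the male list within 25000 bp, 32.7% in the female list for single peaks, 40.0% and 38.1% for 1000 domains, 12.7% and 13.8% by tags per kb, 37.1% in the female list with the best-scored peaks, and 28.8% and 31.2% without H3K4me3 peaks. IgG density was 1.15 and 1.14 with 1 read per position and strand and 1.21 and 1.20 inside peaks. The ranks of named domains also depended on the processing, and 28 rank values, over all alternatives, fell outside the 500: by tags per kb the domain of Ghr went from male rank 8 to 2848, that of Ppara from 7 to 1235 and that between Lurap1l and Zdhhc21 from 10 to 3998, without H3K4me3 peaks that of Igf1 went from 6 to 9303 and male rank 1 to 984, and within 5000 bp that of Hsd3b2 went from 96 to 562. Of the results above and the other main shares, 83 values stayed within the interval of the reported value. Another 67 moved, among them the shares of tags, which have no interval. The 83 include the median lengths under H3K27me3 and H3K9me3. These were 0 in every alternative, as they were over all domains, so they say nothing of how stable the results are. The causes were not tested.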
